A study of Homo sapiens with 9 samples.

Results

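The unfolded protein response and the folding machinery of the endoplasmic reticulum (ER) were followed as 42 genes, chosen by symbol from the 60651 gene rows of a count table of HCT116 RNA. HCT116 is an established human colorectal cancer cell line. The list follows gene function, not a threshold on the measured values, but it was chosen with earlier results of these data known. Counts were found for 41 of the 42 genes, and the same 41 passed the filter on low counts. DERL3, a Derlin of the ER membrane, had 0 counts in all 9 libraries, where 3 counts would correspond to between 0.0504 and 0.0982 CPM (counts per 1e6 counts of a library). SMARCB1 on the opposite strand covers 77.0% of its exon length, and how reads in that stretch were counted is not stated, so these 0 counts do not bound its level. All CPM values below use library sizes scaled by edgeR's TMM factors, which correct for differences in composition between libraries.

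The 9 libraries fall by label into 3 groups of 3, all of HCT116 cells with the genotype given as WT. In the shCTRL DMSO group, cells with a control short hairpin RNA were given DMSO, the solvent. The shSLC6A3 DMSO group carried a hairpin against SLC6A3, which encodes the dopamine transporter (DAT), and also received DMSO. The shCTRL VXN group carried the control hairpin and received VXN, an abbreviation that the labels do not spell out. SLC6A3 itself had between 0 and 6 counts per library, too few to check the knockdown. Whether the 3 libraries of a group came from separate cultures is not stated, and the p-values cover no more than library-to-library spread, possibly technical.

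The labels and the authors' deposited comparison tables place the libraries in different groups. One deposited table is named shCTRL V against shCTRL D and the other shDAT D against shCTRL D. DESeq2 was rerun on the columns that are taken to stand behind these tables. It gave a p-value within 1e-06 of the deposited one for 38906 of 38907 features in each table. On the labelled groups it did so for 0 and 547 of 38907 features. The 3 libraries behind the V side (the V set) are replicate 3 of shCTRL DMSO, replicate 1 of shSLC6A3 DMSO and replicate 3 of shCTRL VXN by label. Those behind the shared D side (the D set) are replicates 2 and 3 of shSLC6A3 DMSO and replicate 2 of shCTRL VXN by label. The remaining libraries, labelled shCTRL DMSO replicates 1 and 2 and shCTRL VXN replicate 1, stand behind the shDAT D side (the DAT set). Values per library are given below in this order, always under the label, and what each library received was not inferred.

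Total counts ranged from 30251364 to 60215785 per library. The library numbers in the labels fall into 2 series of unstated meaning. All 3 shCTRL VXN libraries belong to the second series, and each table set holds 2 libraries of the first and 1 of the second. Epithelial markers summed to between 4060 and 4900 CPM, although VIL1, the brush border protein villin, had at most 6 counts. Of 11 leukocyte, endothelial and fibroblast markers, COL1A1 reached 18.9 to 47.4 CPM, and the other 10 together stayed between 0.622 and 2.03 CPM. One library stood apart within its set. The library labelled shCTRL VXN replicate 2 lay nearer to the mean of the DAT set than to the other D libraries for 37 of 41 ER genes (90.2%) and for 76.9% of 20402 features. Counts of called genes against the D set are therefore given with and without it, as are the genes whose call changed. It was singled out by these same values, so leaving it out widens the difference between the D and DAT sets by selection. The fold changes of V against D shift by that selection too.

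The ER folds proteins that enter the secretory pathway, and colorectal epithelial cells use it for mucins, receptors and adhesion proteins. When unfolded chains build up, the membrane sensors ATF6, IRE1 (gene ERN1) and PERK (gene EIF2AK3) start the unfolded protein response. ATF6 and the spliced form of XBP1 enter the nucleus and raise the transcription of chaperones, oxidoreductases and factors of ER-associated degradation, the route that returns misfolded proteins to the cytosol. PERK phosphorylates the translation factor eIF2α and thereby favours ATF4 and its targets. Gene counts do not separate spliced from unspliced XBP1 mRNA, nor active from inactive sensors.

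The DNA elements through which ATF6 and XBP1 are known to act were looked for in RefSeq promoter windows (GRCh38.p14) that run from 250 bases before to 50 bases after each start. Windows were found for 38 of the 42 genes. FKBP14, DERL1, DERL3 and PDIA3 had no entry. Both strands were searched for the ER stress response element (ERSE, the letters CCAAT and CCACG with any 9 bases between them), for ERSE-II (ATTGG and CCACG with any 1 base between them) and for the unfolded protein response element (UPRE, TGACGTGG). The HSPA5 promoter is printed because HSPA5 contributed more counts than any other of these genes in the V set. It covers chr9:125241344-125241493 on the minus strand, directly before the RefSeq start, with the fixed letters of the ERSE in capitals.

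HSPA5: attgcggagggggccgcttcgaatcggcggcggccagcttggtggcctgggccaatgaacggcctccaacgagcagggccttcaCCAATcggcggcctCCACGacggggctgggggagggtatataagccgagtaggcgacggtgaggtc

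ERSE sites were found in 9 of the 38 promoters (23.7%) and in 0.0916% of 27305 gene symbols with such windows. Those of 5 genes with contrasting values are printed with 5 bases on each side, on the strand that reads as the motif, with its fixed letters in capitals. HSP90B1 held another site in the same window, and CANX, PDIA6, ERO1B and SERP1 held 1 each.

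XBP1, chr22:28800598-28800626: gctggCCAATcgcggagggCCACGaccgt
HSP90B1, chr12:103930316-103930344: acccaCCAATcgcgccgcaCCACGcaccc
CRELD2, chr22:49918549-49918577: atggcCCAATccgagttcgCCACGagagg
CALR, chr19:12938379-12938407: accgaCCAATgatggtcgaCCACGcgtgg
ERO1B, chr1:236282178-236282206: ggcggCCAATgaggcgggaCCACGcgggc

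ERSE-II sites were found in 3 of the 38 promoters (7.89%) and in 0.0696% of all symbols. HYOU1 held another ERSE-II site 185 bases before its start, which overlaps a UPRE on the other strand. A UPRE was present in 2 of the 38 promoters, HYOU1 and DNAJC10, and in 0.927% of all symbols.

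HYOU1, chr11:119057269-119057289: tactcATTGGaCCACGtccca
SDF2L1, chr22:21642109-21642129: ttttgATTGGtCCACGcttcc
HERPUD1, chr16:56932020-56932040: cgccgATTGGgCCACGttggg

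In all, 13 of 38 promoters (34.2%) held at least 1 of the 3 elements, against 1.08% of all symbols. A match is a run of letters and not a measured binding site.

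The main pattern in the ER genes followed the table sets and not the labels. All 42 genes together took 1.32% to 1.36% of the counts in the V set, 0.784% to 0.966% in the D set and 0.798% to 0.805% in the DAT set. HSPA5 alone took 0.299% to 0.313% in the V set and 0.0879% to 0.109% in the other 6 libraries. Each labelled group held 1 library of the V set, so each labelled group contained 1 library with a high share.

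**Figure D1:**
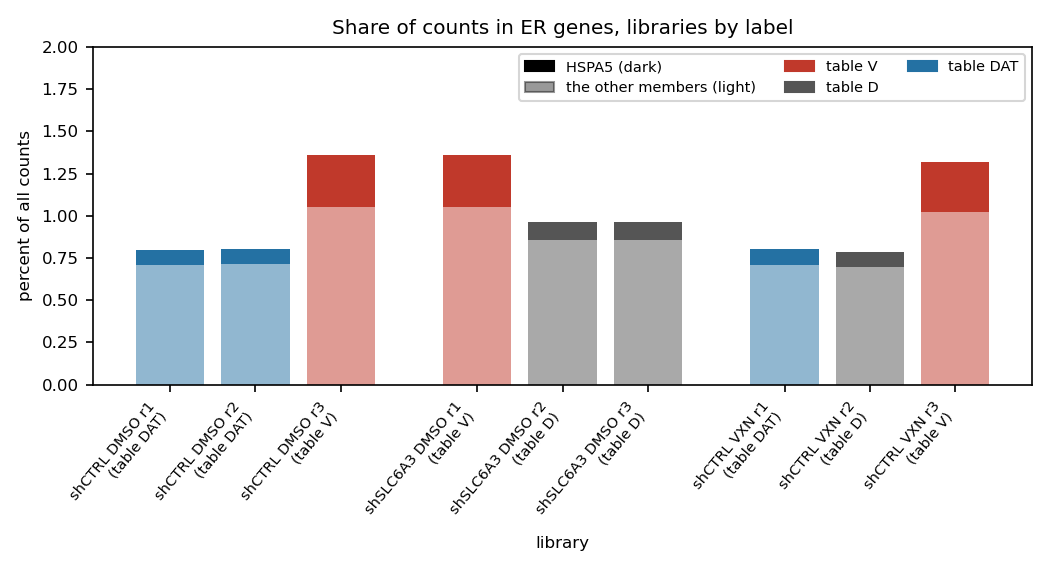
Percent of all counts in each library taken by HSPA5 (dark) and by the other ER genes (light), with libraries ordered by label and coloured by table set. The 3 V libraries reach 1.32% to 1.36%, and the other 6 lie between 0.784% and 0.966%.

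**Figure D2:**
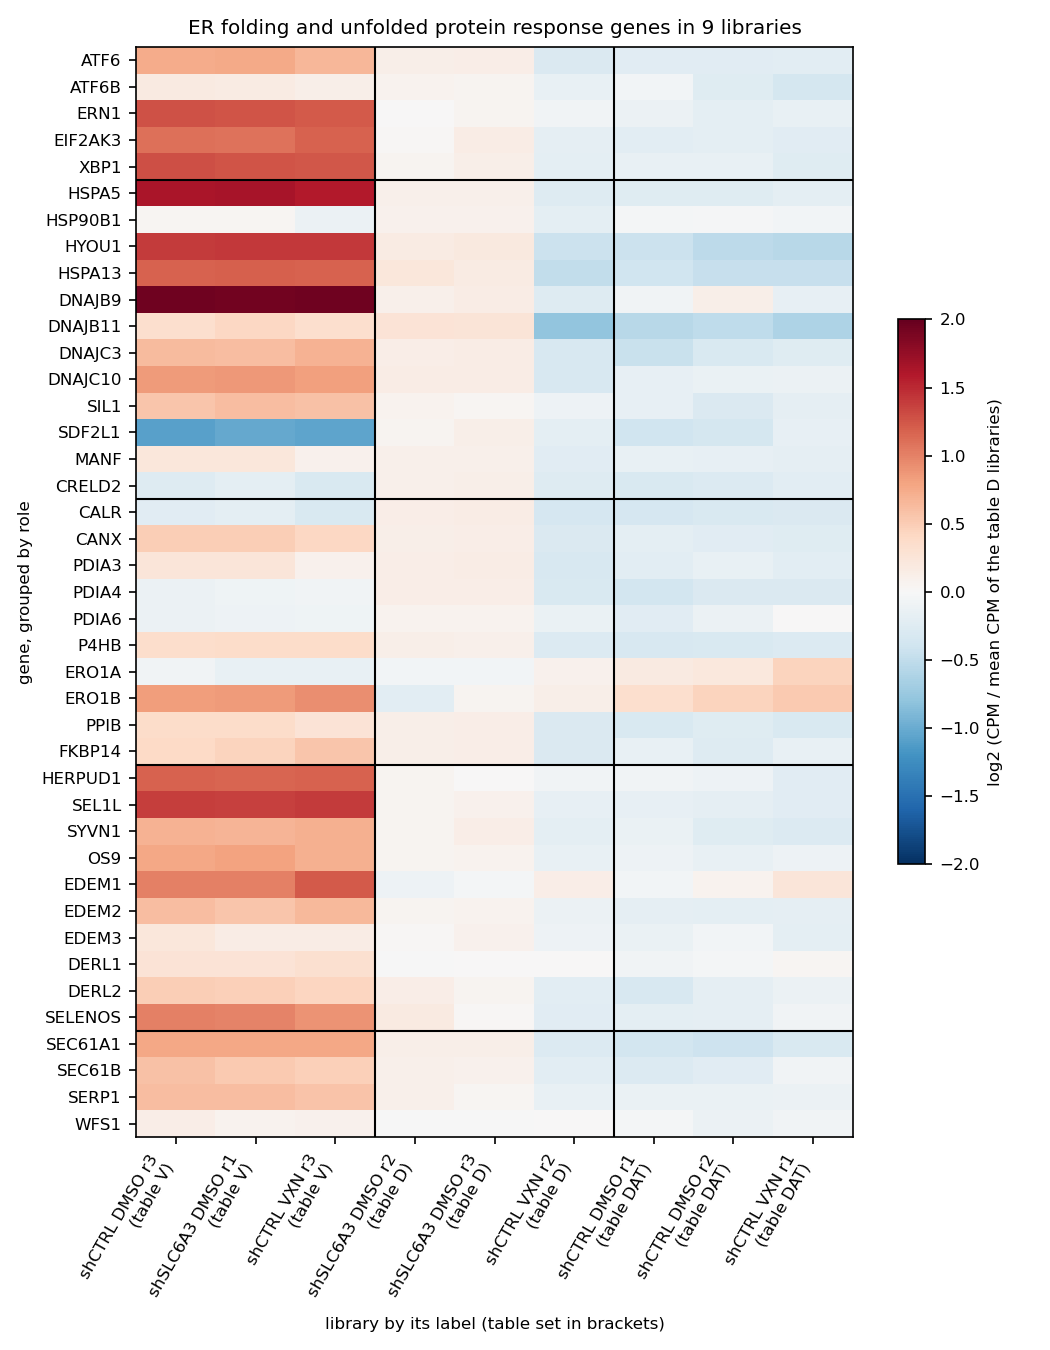
TMM-scaled CPM of the 41 detected ER genes in each library, as log2 of the ratio to the mean of the D set (colour), with rows grouped by role and columns by table set. The V columns are red for most rows, the SDF2L1 row is blue there, and the column of shCTRL VXN replicate 2 resembles the DAT columns more than the other D columns.

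The labelled comparisons ask what the SLC6A3 hairpin and VXN did. None of the 41 ER genes passed an adjusted p of 0.05 in either comparison with edgeR's quasi-likelihood test or with DESeq2. Of all 20402 features, edgeR called 0% higher and 0% lower for shSLC6A3 DMSO, and 0% higher and 0.0098% lower for shCTRL VXN. At an unadjusted p under 0.05, 3 ER genes were higher in shSLC6A3 DMSO and 0 were lower, and for shCTRL VXN there were 0 in either direction, with both tools. Of all 20402 features, edgeR gave 301 higher and 629 lower at that cut for shSLC6A3 DMSO. For shCTRL VXN it gave 181 higher and 203 lower. With same-numbered libraries of shCTRL VXN and shCTRL DMSO as a replicate block in a fit of these 2 groups, edgeR called 0.602% of 19769 features higher and 0.435% lower, and still 0 ER genes (2 higher and 2 lower at an unadjusted p under 0.05). The median log2 fold change of the ER genes was 0.16 for shSLC6A3 DMSO and 0.00 for shCTRL VXN, against -0.01 and 0.00 over all features. The shSLC6A3 DMSO group holds 1 V and 2 D libraries, and shCTRL DMSO 1 V and 2 DAT libraries. Their difference is thus largely D against DAT, and label and table set cannot be told apart. The authors' deposited table of shDAT D against shCTRL D had a median of the opposite sign (-0.14). Leaving out 1 library moved the labelled median between -0.03 and 0.49 for shSLC6A3 DMSO and between -0.27 and 0.32 for shCTRL VXN. In these fits 0 to 8 ER genes were higher in shSLC6A3 DMSO at an unadjusted p under 0.05, with 8 without shCTRL DMSO replicate 3. The shares of all features at that cut are not given for the replicate-block and leave-one-out fits.

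HSPA5, the ER HSP70 chaperone BiP, varied more within the labelled groups than between them. Its level was 859, 861 and 3180 CPM in shCTRL DMSO replicates 1 to 3, 3200, 1100 and 1090 CPM in shSLC6A3 DMSO, and 892, 852 and 3060 CPM in shCTRL VXN. One library of each group was about as high as the high libraries of the other groups, and the groups overlapped throughout. The labelled log2 fold change was 0.14 ± 0.75 (SE) for shSLC6A3 DMSO and -0.03 ± 0.75 for shCTRL VXN.

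The 3 genes with an unadjusted p under 0.05 in shSLC6A3 DMSO were CALR, CRELD2 and PDIA4. CALR, the lectin chaperone calreticulin, was at 560, 576 and 608 CPM in shCTRL DMSO and at 618, 779 and 787 CPM in shSLC6A3 DMSO. These groups did not overlap, yet edgeR's adjusted p was 0.978 (log2 fold change 0.32 ± 0.11 SE). The libraries at 779 and 787 CPM belong to the D set, and those at 560 and 576 CPM to the DAT set. For these libraries label and table set cannot be told apart. In 5 of 41 ER genes all 3 shSLC6A3 DMSO libraries lay above all shCTRL DMSO libraries, which held for 4.03% of all features. No ER gene showed the opposite order, which 4.81% of all features did. All 3 shCTRL VXN libraries lay below all shCTRL DMSO libraries for HSP90B1 alone (3.04% of all features), and for no ER gene did they lie above (3.28%). The shCTRL VXN and shCTRL DMSO libraries come from different number series, so in that comparison the number series and the treatment cannot be told apart.

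Most ER genes were higher in shCTRL V than in shCTRL D. At an adjusted p below 0.05, the authors' deposited table called 28 of 41 ER genes higher and 2 of them lower. Over all 24274 features with an adjusted p, that table called 21.4% higher and 22.7% lower. The median log2 fold change was 0.55 for the ER genes and 0.00 for all features in the authors' deposited table. In CPM, all V libraries lay above all D libraries for 32 of 41 ER genes (31.6% of all features). The opposite order held for SDF2L1 and ERO1A (28.8% of all features). Without shCTRL VXN replicate 2, a DESeq2 rerun called 28 higher and 6 lower, against 22.1% and 23.1% of all features. Among libraries of the first number series alone, which again leaves out shCTRL VXN replicate 2, edgeR called 34 higher and 7 lower, against 36.1% and 31.9% of all features. The second series has 1 library per set and allows no test.

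Dividing-cell markers moved with the same contrast. MKI67, TOP2A, CCNB1, BUB1 and CDK1 were all called lower in V in the authors' deposited table (22.7% of all features). Their summed level was 201 to 233 CPM in the V set, 1330 to 1460 CPM in the D set and 1250 to 1370 CPM in the DAT set. Of 6 epithelial markers with an adjusted p, the authors' deposited table called 2 higher in V and 0 lower (21.4% and 22.7% of all features). These were the adhesion protein CDH1 (2.06-fold, adjusted p = 8.33e-54) and the keratin KRT19 (1.28-fold). KRT18 (log2 fold change 0.16), KRT8 (0.01), EPCAM (-0.18) and CDX2 (-0.18) were not called, and VIL1 (-0.15) had no adjusted p. The epithelial markers summed to 4710 to 4900 CPM in the V set, 4070 to 4410 CPM in the D set and 4060 to 4220 CPM in the DAT set. The part of either marker list in the ER result was not tested. In bulk RNA, fewer cells of one kind and less RNA per cell cannot be told apart.

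**Figure D3:**
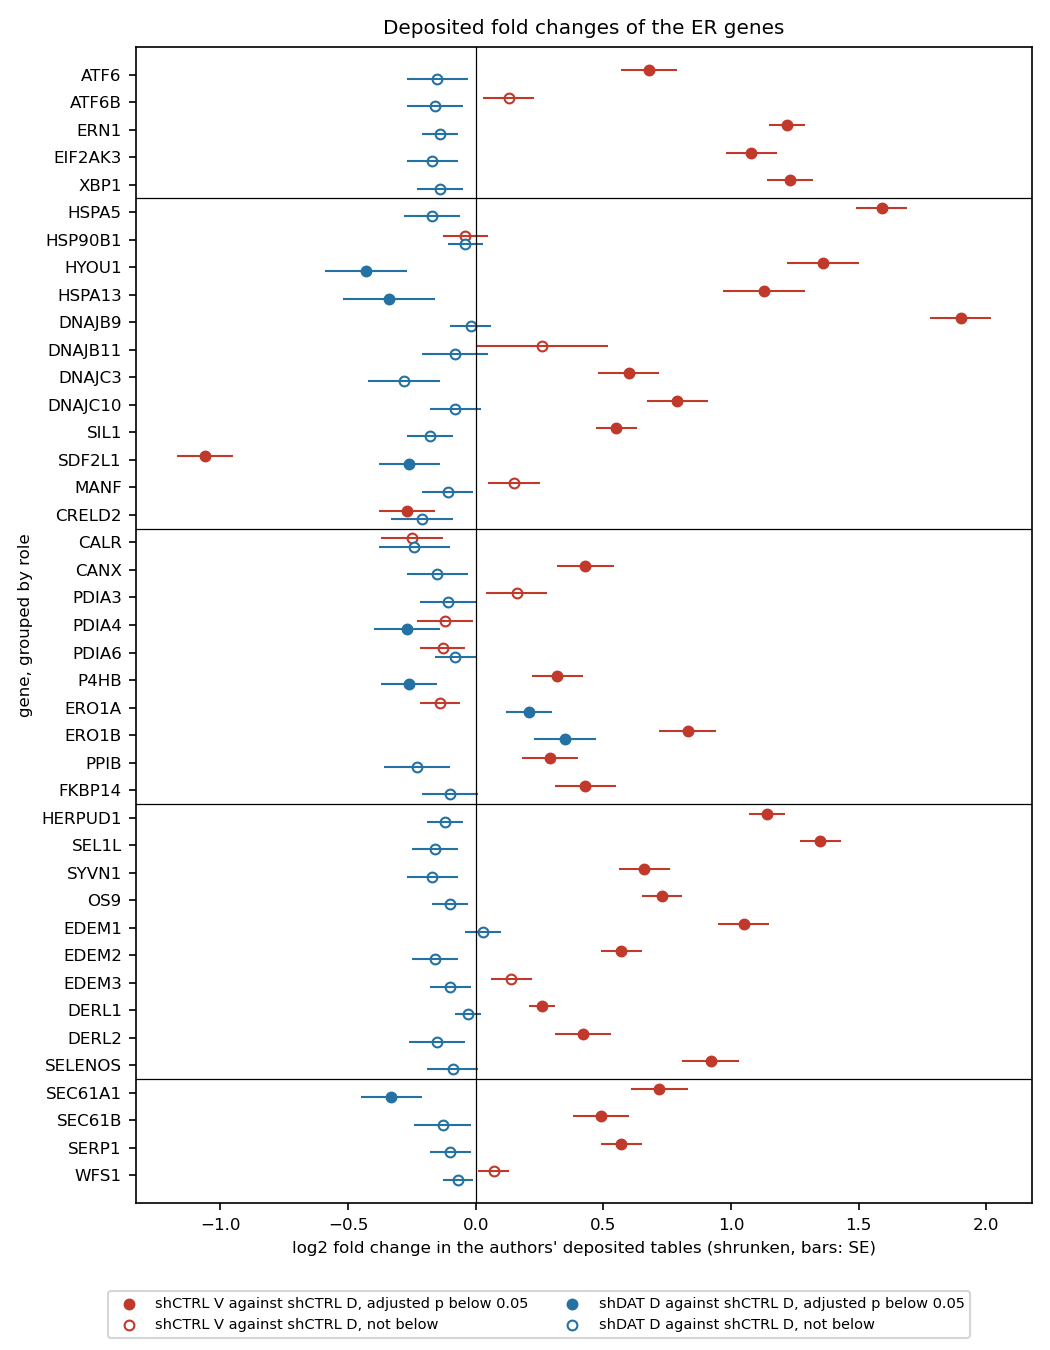
Shrunken log2 fold changes (x axis, bars are standard errors) of 41 ER genes in the authors' 2 deposited tables, grouped by role, with filled points for an adjusted p below 0.05. The V comparison (red) ranges from -1.06 for SDF2L1 to 1.90 for DNAJB9, and the DAT comparison (blue) from -0.43 for HYOU1 to 0.35 for ERO1B.

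The sensors and transcription factors were higher in V for 4 of 5 genes (21.4% of all features), with a median log2 fold change of 1.08 in the authors' deposited table. XBP1, the transcription factor whose mRNA is spliced by IRE1, was at 198, 194 and 192 CPM in the V set, 83.8, 88.1 and 70.7 CPM in the D set and 72.9, 72.6 and 68.4 CPM in the DAT set. All V libraries lay above the others, and the last D library fell within the range of the DAT set. The authors' deposited table gave XBP1 a log2 fold change of 1.23 ± 0.09 (SE, adjusted p = 4.75e-39), or 2.35-fold.

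ERN1, the gene of the sensor and RNase IRE1, was at 67.5, 66.9 and 65.4 CPM in the V set, 28.2, 28.9 and 26.6 CPM in the D set and 25.7, 24.4 and 25.3 CPM in the DAT set. The V libraries were high and the other 6 lay close together. Its log2 fold change was 1.22 ± 0.07 (SE, adjusted p = 5.59e-68) in the authors' deposited table.

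EIF2AK3, the gene of the eIF2α kinase PERK, was at 52.7, 52.2 and 55.4 CPM in the V set, 24.8, 27.1 and 21.6 CPM in the D set and 21.1, 21.3 and 20.9 CPM in the DAT set. The sets did not overlap, although the D and DAT sets were separated by little. The authors' deposited table gave EIF2AK3 a log2 fold change of 1.08 ± 0.10 (SE, adjusted p = 1.96e-28).

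ATF6, the sensor whose cytosolic part becomes a transcription factor, had 137, 138 and 129 CPM in the V set, 88.2, 89.8 and 66.8 CPM in the D set and 69.7, 69.9 and 70.2 CPM in the DAT set. Again the V set was highest, with a log2 fold change of 0.68 ± 0.11 (SE, adjusted p = 5.34e-09) in the authors' deposited table. In the DESeq2 rerun without shCTRL VXN replicate 2, the log2 fold changes were 1.14 for XBP1, 1.18 for ERN1, 1.0 for EIF2AK3 and 0.56 for ATF6. ATF6B, a relative of ATF6, had 46.3, 45.7 and 44.1 CPM in the V set, 42.9, 42.2 and 36.9 CPM in the D set and 39.1, 34.5 and 31.8 CPM in the DAT set. ATF6B was the 1 sensor not called, at a log2 fold change of 0.13 ± 0.10 (SE, adjusted p = 0.313) in the authors' deposited table.

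The HSP70 and HSP90 chaperones of the ER and their cofactors were more often called higher than lower in V. Of 12 such genes, 7 were called higher and 2 were called lower by the authors' deposited table (21.4% and 22.7% of all features), with a median log2 fold change of 0.58. DNAJB9, a J-domain cofactor of BiP also called ERdj4, had 67.2, 67.0 and 67.5 CPM in the V set, 18.8, 19.3 and 14.6 CPM in the D set and 16.7, 18.9 and 15.6 CPM in the DAT set. The V libraries differed by less than 1 CPM from each other, and the D and DAT sets overlapped. DNAJB9 was 3.73-fold higher in V in the authors' deposited table, the largest change among the ER genes there (log2 fold change 1.90 ± 0.12 SE, adjusted p = 1.4e-56).

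HSPA5 levels were 3180, 3200 and 3060 CPM in the V set, 1100, 1090 and 852 CPM in the D set and 859, 861 and 892 CPM in the DAT set. The V libraries stood well above the other 6, and the last D library was the lowest of all. HSPA5 was 3.02-fold higher in V in the authors' deposited table (log2 fold change 1.59 ± 0.10 SE, adjusted p = 1.03e-52), and 1.48 ± 0.04 on the log2 scale in the DESeq2 rerun without shCTRL VXN replicate 2. The gene lies at chr9:125234853-125241330 on the minus strand (GENCODE v29, GRCh38), and its promoter holds the ERSE printed above.

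HYOU1, a large HSP70-like nucleotide exchange factor of BiP, was at 815, 820 and 822 CPM in the V set, 344, 352 and 229 CPM in the D set and 228, 215 and 210 CPM in the DAT set. The V set was highest, and the D set held 2 libraries above the DAT set and 1 beside it. The authors' deposited table gave HYOU1 a log2 fold change of 1.36 ± 0.14 (SE, adjusted p = 4.07e-21). HSPA13, another HSP70 relative of the ER, was at 158, 159 and 157 CPM in the V set, 81.0, 78.1 and 49.2 CPM in the D set and 52.5, 50.5 and 50.6 CPM in the DAT set. As for HYOU1, 2 D libraries lay above the DAT set and shCTRL VXN replicate 2 beside it. HSPA13 had a log2 fold change of 1.13 ± 0.16 (SE, adjusted p = 1.04e-12) in the authors' deposited table. Without shCTRL VXN replicate 2, DESeq2 gave 1.20 for HYOU1 and 0.95 for HSPA13.

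The remaining genes called higher in this group were the J-domain proteins DNAJC10 (0.79) and DNAJC3 (0.60) and the exchange factor SIL1 (0.55), by their log2 fold changes in the authors' deposited table. MANF, a secreted factor that binds BiP, was not called (0.15 ± 0.10 SE, adjusted p = 0.242 in the authors' deposited table). DNAJB11, the cofactor ERdj3, had 105, 111 and 105 CPM in the V set, 101, 100 and 48.4 CPM in the D set and 56.7, 58.4 and 54.6 CPM in the DAT set. The D set alone was split, with 2 libraries near the V level and shCTRL VXN replicate 2 below the DAT level. DNAJB11 was not called in the authors' deposited table (adjusted p = 0.375), nor with DESeq2 without shCTRL VXN replicate 2 (0.05 ± 0.05 SE, adjusted p = 0.505).

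HSP90B1, the ER HSP90 GRP94, did not follow HSPA5. Its levels were 1270, 1280 and 1140 CPM in the V set, 1320, 1320 and 1080 CPM in the D set and 1210, 1220 and 1190 CPM in the DAT set. The sets overlapped, and the authors' deposited table gave a log2 fold change of -0.04 ± 0.09 (SE, adjusted p = 0.768). Without shCTRL VXN replicate 2, DESeq2 gave HSP90B1 -0.15 ± 0.05 (adjusted p = 0.00786). Its promoter window held ERSE sites, as that of HSPA5 did.

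SDF2L1, a partner of the ERdj3 cofactor, moved the other way. It was at 16.8, 17.7 and 17.3 CPM in the V set, 37.0, 39.0 and 31.4 CPM in the D set and 27.2, 28.1 and 32.0 CPM in the DAT set. The V libraries were the 3 lowest, without overlap. SDF2L1 was at 0.479 of the D level in the authors' deposited table (log2 fold change -1.06 ± 0.11 SE, adjusted p = 3.21e-21). Its promoter held the ERSE-II printed above, as did those of HYOU1 and HERPUD1, which were higher in V.

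CRELD2, an ER protein with disulfide-rich repeats, had 30.5, 32.1 and 29.7 CPM in the V set, 39.2, 39.9 and 30.7 CPM in the D set and 29.6, 30.3 and 31.5 CPM in the DAT set. Only the first pair of D libraries stood out, and shCTRL VXN replicate 2 lay among the V and DAT values. The authors' deposited table called CRELD2 lower (log2 fold change -0.27 ± 0.11 SE, adjusted p = 0.0304). It was also lower without shCTRL VXN replicate 2, at -0.40 ± 0.07 with DESeq2.

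**Figure D4:**
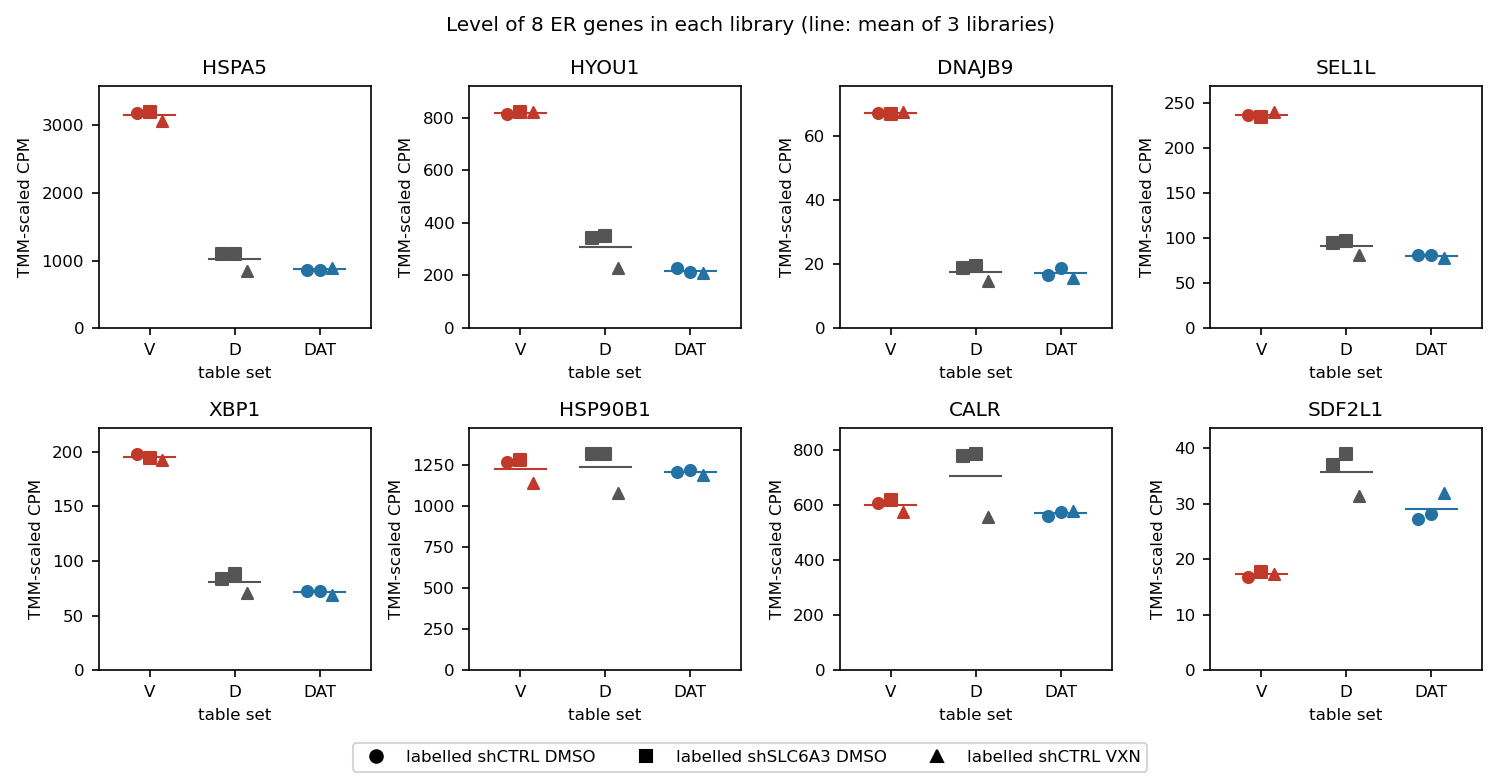
TMM-scaled CPM (y axis from 0) of 8 ER genes in each library, by table set (x axis and colour) and label (marker), with a line at the mean of 3 libraries. HSPA5, HYOU1, DNAJB9, SEL1L and XBP1 are high in the V set, HSP90B1 is level, CALR is high in 2 D libraries, and SDF2L1 is low in the V set.

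Lectin chaperones, disulfide isomerases, prolyl isomerases and oxidases had the lowest median of the 5 role groups. The authors' deposited table called 5 of 10 higher and 0 lower, against 21.4% and 22.7% of all features. The median log2 fold change was 0.22 (5 higher and 1 lower at an unadjusted p under 0.05, against 5831 and 6101 of 24274 features). Those called were the oxidase ERO1B (0.83), the lectin chaperone calnexin CANX (0.43), the prolyl isomerases FKBP14 (0.43) and PPIB (0.29) and the disulfide isomerase P4HB (0.32), by log2 fold change in the authors' deposited table. PPIB shares 27.2% of its exon length with SNX22 on the opposite strand, and PDIA6 25.2% with ATP6V1C2. The library kit does not mark strand, so reads from such stretches cannot be told apart.

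CALR was at 608, 618 and 575 CPM in the V set, 779, 787 and 559 CPM in the D set and 560, 576 and 579 CPM in the DAT set. As with CRELD2, 2 D libraries were high and the rest lay together. CALR was not called in the authors' deposited table (-0.25 ± 0.12 SE, adjusted p = 0.0655), but was -0.42 ± 0.04 (adjusted p = 5.85e-22) with DESeq2 without shCTRL VXN replicate 2. PDIA6, a disulfide isomerase, was at 235, 238 and 239 CPM in the V set, 266, 266 and 231 CPM in the D set and 218, 234 and 256 CPM in the DAT set. The sets overlapped, and PDIA6 was not called in the authors' deposited table (-0.13 ± 0.09 SE, adjusted p = 0.265). The calls that appeared without that library were HSP90B1, CALR, PDIA4 and PDIA6, all lower in V. Leaving it out removed the lowest D value of HSP90B1, CALR and PDIA6, so the selection itself moved these fold changes down.

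The oxidases that recharge disulfide isomerases had different orders. ERO1A had 162, 155 and 155 CPM in the V set, 165, 165 and 182 CPM in the D set and 193, 197 and 233 CPM in the DAT set. The V set was lowest and the DAT set highest, without overlap, although the authors' deposited table did not call the V difference (-0.14 ± 0.08 SE, adjusted p = 0.159). ERO1B had 17.0, 17.2 and 18.2 CPM in the V set, 8.27, 9.96 and 10.4 CPM in the D set and 12.0, 13.0 and 13.8 CPM in the DAT set. Here the V set was highest and the D set lowest, also without overlap.

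Genes of ER-associated degradation were higher in V for 9 of 10 detected members (21.4% of all features), with a median log2 fold change of 0.69 in the authors' deposited table. SEL1L, the adaptor of the HRD1 ubiquitin ligase, was at 237, 234 and 240 CPM in the V set, 94.7, 97.1 and 81.3 CPM in the D set and 81.0, 80.7 and 77.5 CPM in the DAT set. The V libraries were about level with each other and far above the rest. SEL1L was 2.54-fold higher in V in the authors' deposited table (log2 fold change 1.35 ± 0.08 SE, adjusted p = 1.25e-56).

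HERPUD1, a membrane protein that assembles with HRD1, had 171, 169 and 172 CPM in the V set, 78.1, 76.3 and 72.3 CPM in the D set and 71.8, 70.2 and 64.4 CPM in the DAT set. The 3 sets did not overlap. Its log2 fold change was 1.14 ± 0.07 (SE, adjusted p = 3.5e-60) in the authors' deposited table. SYVN1, the HRD1 ligase itself, had a smaller value of 0.66 ± 0.10 (SE, adjusted p = 7.51e-11) in the authors' deposited table.

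The mannosidase-like proteins that mark misfolded glycoproteins were unequal. EDEM1 had a log2 fold change of 1.05 ± 0.10 (SE, adjusted p = 6.19e-23), EDEM2 0.57 ± 0.08 (adjusted p = 2.1e-11) and EDEM3 0.14 ± 0.08 (adjusted p = 0.153) in the authors' deposited table. SELENOS (0.92), the lectin OS9 (0.73) and the Derlins DERL2 (0.42) and DERL1 (0.26) were also called higher, by log2 fold change in the authors' deposited table.

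In the translocon and membrane group 3 of 4 genes were higher in V in the authors' deposited table (21.4% of all features). The pore subunits SEC61A1 and SEC61B had log2 fold changes of 0.72 ± 0.11 and 0.49 ± 0.11 (SE), and SERP1, which stabilises membrane proteins at the translocon, had 0.57 ± 0.08 in the authors' deposited table. WFS1, the ER membrane protein wolframin, was not called (0.07 ± 0.06 SE, adjusted p = 0.397 in the authors' deposited table).

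The promoter elements were set beside the V comparison. The 9 genes with an ERSE had a median log2 fold change of 0.43 in the authors' deposited table (5 called higher, 1 lower), and the 29 without one 0.60 (21 higher, 1 lower). The median log2 fold change in the authors' deposited table was 0.57 for the 13 genes with at least 1 element and 0.57 for the 25 without. Of the 13, the authors' deposited table called 8 higher and 2 lower, and of the 25, the authors' deposited table called 18 higher and 0 lower. Over all features it called 21.4% higher and 22.7% lower. DNAJB9 and SEL1L, with 2 of the largest changes, had no match in the searched windows.

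Ratios within a library showed the unequal changes directly. Per kilobase of exon, HSPA5 was at 3.02, 3.01 and 3.22 times HSP90B1 in the V set, 0.998, 0.992 and 0.951 times in the D set and 0.852, 0.846 and 0.897 times in the DAT set. The 2 chaperones were thus near equal per length outside the V set. DNAJB9 was at 1.30, 1.22 and 1.29 times DNAJB11 per kilobase in the V set, 0.374, 0.389 and 0.610 times in the D set and 0.594, 0.653 and 0.579 times in the DAT set. This ratio placed shCTRL VXN replicate 2 within the DAT range. SEL1L was at 1.28 times SYVN1 per kilobase in all 3 V libraries and between 0.777 and 0.832 times in the other 6. ERN1 against EIF2AK3 showed no such separation, at 0.591 to 0.642 in the V set and 0.533 to 0.616 in the others.

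The comparison of shDAT D with shCTRL D gave small changes. The authors' deposited table called 2 of 41 ER genes higher and 6 lower, against 1% higher and 5.62% lower of 10403 features with an adjusted p. The median log2 fold change in the authors' deposited table was -0.14 for the ER genes and -0.04 for all features, and 38 of 41 ER genes were below 0. The genes called lower were HYOU1 (-0.43), HSPA13 (-0.34), SEC61A1 (-0.33), PDIA4 (-0.27), SDF2L1 (-0.26) and P4HB (-0.26), by log2 fold change in the authors' deposited table. Those called higher were the oxidases ERO1B (0.35 ± 0.12 SE, adjusted p = 0.0252) and ERO1A (0.21 ± 0.09 SE, adjusted p = 0.0427) in the authors' deposited table. All DAT libraries lay above all D libraries for these 2 oxidases (8.83% of all features) and below them for 10 ER genes (9.97%).

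HYOU1, with 344, 352 and 229 CPM in the D set against 228, 215 and 210 CPM in the DAT set, had the lowest fold change in the authors' deposited table. Its D libraries labelled shSLC6A3 DMSO were high, and shCTRL VXN replicate 2 lay 1 CPM above the nearest DAT library. HYOU1 had a shrunken log2 fold change of -0.43 ± 0.16 (SE, adjusted p = 0.0252) in the authors' deposited table. Unshrunken, DESeq2 gave -0.53 ± 0.14 with all libraries and -0.71 ± 0.05 without shCTRL VXN replicate 2. DNAJB11 was lower than HYOU1 in the rerun without that library, at -0.87 ± 0.05 (DESeq2 adjusted p = 1.97e-58). It was also lower in the unshrunken rerun of all libraries (-0.59 against -0.53) and with edgeR (-0.56 against -0.50). Its shrunken value in the authors' deposited table was -0.08 ± 0.13 (adjusted p = 0.143). The D libraries of SDF2L1 (37.0, 39.0 and 31.4 CPM) overlapped its DAT libraries (27.2, 28.1 and 32.0 CPM), and it was called lower in the authors' deposited table at an adjusted p of 0.0479.

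The counts of calls depended on 1 library and on the test. Without shCTRL VXN replicate 2, DESeq2 called 2 ER genes higher and 36 lower, against 13.8% and 21.1% of all features. Of the detected ER genes, only EDEM1, DERL1 and WFS1 were not called. That library was singled out for lying near the DAT set, so leaving it out widens the difference by selection. Without any other single library of the 2 sets DESeq2 called 0, with 9 to 20 lower and 2 higher at an unadjusted p under 0.05. In 3 of those reruns only 25 to 27 of the ER genes received an adjusted p. With no library left out, edgeR called 0 ER genes and 0% of all features, with 24 ER genes lower and 2 higher at an unadjusted p under 0.05. The shares of all features at that cut are not given for these fits. In the authors' deposited table, 2 ER genes were higher and 25 lower at that cut, against 684 and 2501 of 10403 features. Among first-series libraries alone, which again leaves out shCTRL VXN replicate 2, edgeR called 2 higher and 35 lower, against 26.7% and 27.8% of all features. Without a low-count filter it called 1 higher and 7 lower (0.593% and 1.18% of all features). The DESeq2 rerun with no library left out, whose adjustment covered 14048 features, called 1 higher and 2 lower (0.819% and 3.14%).

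The V and DAT sets were also compared directly with edgeR, since the 2 deposited tables share the D libraries. At an adjusted p below 0.05, 34 of 41 ER genes were higher in the V set and 2 were lower, against 28.8% and 28.7% of 20402 features. The median log2 difference was 0.72 for the ER genes and 0.00 for all features. All V libraries lay above all DAT libraries for 35 ER genes (35% of all features) and below them for SDF2L1 and ERO1A (34.6%). All 5 sensors and transcription factors, all 10 detected genes of ER-associated degradation and all 4 translocon and membrane genes passed the test as higher in the V set.

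The 5 largest called differences were DNAJB9 at 1.98 ± 0.11, HYOU1 at 1.91 ± 0.14, HSPA5 at 1.85 ± 0.09, HSPA13 at 1.63 ± 0.15 and SEL1L at 1.57 ± 0.07 (log2 difference of V minus DAT with its SE). Their adjusted p-values with edgeR lay between 4.84e-08 for SEL1L and 7.25e-06 for HSPA13. Lower in the V set were SDF2L1 (-0.75 ± 0.09, edgeR adjusted p = 5.42e-05) and ERO1A (-0.40 ± 0.08, edgeR adjusted p = 0.00117). HSP90B1 (0.02), PDIA6 (0.01), CRELD2 (0.01) and CALR (0.07) lay near 0, with edgeR adjusted p-values of 0.611 to 0.921. DNAJB11, not called against the D set, was higher by 0.92 ± 0.22 on the log2 scale (edgeR adjusted p = 0.00433).

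Other genes of the same compartment were read from lists of related function. Among 32 other ER folding enzymes the authors' deposited table called 13 higher and 4 lower in V, with a median log2 fold change of 0.17. Over all features that table called 21.4% higher and 22.7% lower, the shares to set beside each list. The highest were the lectin chaperone CLGN (2.34 ± 0.13 SE) and CRELD1 (1.0 ± 0.10), and the lowest the prolyl isomerase FKBP7 (-1.45 ± 0.21) and the sulfhydryl oxidase QSOX2 (-0.29 ± 0.07) in the authors' deposited table. Of 27 genes of the translocon, signal peptidase and N-glycosylation, the authors' deposited table called 13 higher and 3 lower, from TRAM1 (0.65) and SEC61G (0.44) to the signal peptidase subunits SEC11A (-0.25) and SPCS1 (-0.40) among well-counted genes.

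Other factors of ER-associated degradation were higher for 11 of 22 and lower for 2 in the authors' deposited table (21.4% and 22.7% of all features). The lectin ERLEC1 (0.88) and the ubiquitin-conjugating enzyme UBE2J1 (0.87) were highest, and UBE2G2 (-0.31) and the membrane protein ERLIN1 (-0.76) lowest in the authors' deposited table. Of 10 genes of sensor processing and the CREB3 family, 4 were higher, among them CREB3 (0.79) and TMBIM6 (0.64), and 2 lower, CREB3L4 (-0.54) and TRAF2 (-0.95), in the authors' deposited table. ER exit and retrieval genes were higher for 9 of 19 and lower for 1, with the coat subunits SEC24D (1.22) and SEC31A (0.57) highest and the cargo lectin LMAN2 (-0.33) lowest in the authors' deposited table.

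The PERK arm and integrated stress response had 10 of 16 genes higher and 3 lower (21.4% and 22.7% of all features), with a median log2 fold change of 0.85 in the authors' deposited table. NUPR1 (3.50 ± 0.33 SE) and SESN2 (2.05 ± 0.07) were highest, and EIF2S1, the gene of eIF2α (-0.50 ± 0.08), and the kinase gene EIF2AK2 (-0.30 ± 0.07) lowest in the authors' deposited table. In the DAT comparison 117 genes of these 6 lists had an adjusted p in the authors' deposited table. Of these it called 0 higher and 10 lower, against 1% and 5.62% of all features. At an unadjusted p under 0.05, 2 were higher and 47 lower, against 684 higher and 2501 lower of 10403 features with an adjusted p.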

How the data were processed

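The 9 RNA libraries of HCT116 were analysed as deposited. The counts deposited by the authors are unnormalised reads per gene and repeat subfamily, 61832 rows in all. The tools named per the submitters' processing notes are fastp 0.20.1, FastQC 0.11.9, STAR and DESeq2 1.34.0, and the build is GRCh38. For the counting program, nothing is given in the sources used here. The deposited log2 fold changes, p-values and the mean signal of normalised counts (base mean) deposited by the authors have the columns of a DESeq2 result, per the file headers. The fold changes are shrunken: a DESeq2 rerun without shrinkage gave the deposited p-values and other fold changes. All DESeq2 reruns given here are unshrunken, so their distance from a deposited value also holds the shrinkage.

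The labelled groups, and the V and DAT sets, were compared with edgeR 4.0.16 (R 4.3.3; quasi-likelihood test, TMM factors, filterByExpr, 20402 features, all 9 libraries in 1 fit). Benjamini-Hochberg adjustment ran over all features tested, and an adjusted p below 0.05 was called. Reruns and leave-one-out fits of the deposited comparisons used DESeq2 1.42.0. The edgeR and DESeq2 fits were tested on simulated data. Positions and exon lengths came from GENCODE v29, which matched all 42 symbols. At 30251364 to 60215785 counts per library, 3 counts are below 0.1 CPM.

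The members and lists were chosen with earlier results of these data known. Values in every library were given for the 5 highest and 5 lowest members of the V table, the 5 sensors and transcription factors, and the 5 largest called differences between V and DAT sets. DNAJB11, HSP90B1, ERO1B and HERPUD1 were added after their values were seen. Per other list, up to 2 called genes per direction with a base mean of at least 50 were named. Same-numbered libraries deviated together from their group means in 5 of 9 pairs and oppositely in 4 (r from -0.847 to -0.828). All 3 pairs of shCTRL VXN and shCTRL DMSO correlated (0.877 to 0.964), and those numbers were taken to pair libraries, by this correlation alone. The numbers of shSLC6A3 DMSO were not. Differently numbered libraries correlated as well (0.931 for shCTRL DMSO replicate 1 with shCTRL VXN replicate 2), and replicate 3 of both groups lies in the V set. This correlation therefore does not show that the libraries are paired. One VXN library has VNN in its title, and its treatment label (VXN) decided its group. Alternatives were another tool, other scalings, no filter, the number series, a replicate block and leaving out each library.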

Additional observations from a re-analysis of the deposited data

How the results depend on the processing

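The labelled comparisons had 0 ER genes called under every alternative run, including a replicate block (0 higher and 0 lower in both comparisons, with 3 higher at an unadjusted p under 0.05 for shSLC6A3 DMSO and 0 for shCTRL VXN, edgeR). The replicate block of all 3 groups changed no call of an ER gene, nor did that of shCTRL VXN and shCTRL DMSO alone, an alternative chosen after seeing the data (0 higher, 0 lower). For shCTRL V against shCTRL D, the count of ER genes called higher lay between 27 and 34 over all alternatives. Over all features, 21.4% were called higher in the authors' deposited table, 28% with edgeR and 36.1% with edgeR on the first number series alone. The count of ER genes called lower was 2 in the authors' deposited table (22.7% of all features). With edgeR on the first number series alone it was 7 (31.9%). It was 1 to 6 when 1 library was left out, with 6 without shCTRL VXN replicate 2 (23.1%).

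For shDAT D against shCTRL D, the 8 calls of the authors' deposited table (2 higher, 6 lower) became 0 (0 higher, 0 lower) with edgeR, with edgeR on total counts or RLE size factors, and with the number series as a term. They were 3 (1 higher, 2 lower) in the DESeq2 rerun, an alternative chosen after seeing the data whose adjustment covered 14048 features against 10403 in the authors' deposited table. Without a low-count filter they were 1 higher and 7 lower, against 0.593% and 1.18% of all features, and on the first series alone 37 (2 higher, 35 lower), against 26.7% and 27.8%. Leaving out 1 library gave 0 to 38 calls, 0 to 2 higher and 0 to 36 lower, and all calls in these fits came without shCTRL VXN replicate 2. The first series alone also lacks that library. The cause was not tested.

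In the deposited comparisons and between the V and DAT sets, signs changed for 5 ER genes, none called in the result reported. Single genes of the labelled comparisons were not followed through the alternatives. Over leave-one-out fits HSP90B1 ranged from -0.15 (DESeq2 adjusted p = 0.00786, without shCTRL VXN replicate 2) to 0.01 for shCTRL V against shCTRL D. For shDAT D against shCTRL D, DERL1 turned to 0.01 on total counts and DNAJB9 ranged from -0.19 (DESeq2 adjusted p = 0.0473, without that same library) to 0.01 when 1 library was left out. Between the V and DAT sets, total counts gave -0.04 for HSP90B1, -0.04 for CRELD2 and -0.05 for PDIA6, and no filter gave 0.00, -0.01 and -0.01. Leave-one-out fits gave 0.00 to 0.08 for HSP90B1, -0.01 to 0.04 for CRELD2 and -0.05 to 0.07 for PDIA6. Depth does not limit the 41 detected genes, each with a base mean of at least 617 in the authors' deposited table.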
